A study of Mus musculus with 8 samples.

Results

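Tropomyosins are coiled-coil proteins that lie end to end along actin filaments and govern which other proteins, among them myosins, tropomodulins and cofilins, reach the filament. Mammals make many tropomyosin isoforms from 4 genes, Tpm1, Tpm2, Tpm3 and Tpm4, by alternative promoters and alternative exons. In cells other than muscle, isoforms of Tpm1, Tpm3 and Tpm4 mark actin filaments of the cortex, stress fibres and leading edge, whereas the long isoforms of Tpm1, Tpm2 and Tpm3 work with troponin in striated muscle. The mouse genome also carries Tpm3-rs7, a retrogene, that is, a gene copied from a spliced messenger RNA and inserted elsewhere without introns. The 5 genes described here, of 54281 in the tables, are these 4 and Tpm3-rs7, found by their symbols. Tpm3-rs7 was chosen by its difference between Tet1 knockout and wild-type cells in these same libraries, so its own values in that comparison are given as a description with no test; the other 4 belong to its family.

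Bulk polyA RNA was sequenced from mouse epiblast-like cells (EpiLCs), a formative pluripotent state reached from embryonic stem cells (ESCs). There were 4 Tet1 KO lines (KO1, KO9, KO15, KO25) and 4 WT lines (WT7, WT12, WT17, WT34), with 1 library per line. All 8 lines were male, blastocyst-derived ESC lines of the B6129S6F1 Tet1<tm1Koh> stock, which mixes the B6 and 129S6 strains, and the KO lines lacked Tet1, a dioxygenase that oxidises 5-methylcytosine, in every cell from the start. The study kept its ESC lines on feeders of inactivated mouse embryonic fibroblasts in serum medium with LIF, and adapted them to 2iL medium on gelatin. They were then converted for 2 days on fibronectin in N2B27 with 1% knockout serum replacement and 12 ng/ml bFGF, without Activin A. The study describes its KO and WT lines as littermate pairs, but which of the lines share a litter is not given in the sources used here, so each line counts as a replicate and the p-values measure the spread between lines without the litters. In bulk RNA, fewer cells of a type and less RNA per cell cannot be told apart.

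Library totals ran from 13916576 to 23680839 estimated counts. Tet1 itself ranged from 38.4 to 54.2 CPM (the counts scaled to a common library size, with a correction for library composition) over the KO libraries, and over the WT libraries from 559 to 851 CPM, so every library matched its labelled genotype; the lowest WT value was that of WT12. The library titled WT12 carries another line name in its cell line label, and the library titled WT17 carries WT12 there. Results for Tpm3-rs7, Tpm3, the pair and Tpm1 are therefore also given without the library titled WT12. Ranges with each line left out in turn, WT17 among them, are given at the end. The column names end in b1 (KO1, KO9, WT7, WT17) or b2 (KO15, KO25, WT12, WT34), a mark whose meaning is not given in the sources used here. Of the 5 epiblast-like cell markers, 2 were high: Pou5f1, the pluripotency factor Oct4, at mean levels of 462 TPM in KO and 452 TPM in WT, and Dnmt3b, a de novo DNA methyltransferase, at 252 TPM and 245 TPM. TPM is the transcript abundance unit of the deposited files, a level per transcript length. The others were lower: Otx2 had 23.9 TPM in KO and 21.2 TPM in WT, Fgf5 11.64 TPM and 11.55 TPM, and Pou3f1 21.5 TPM and 23.6 TPM. Fgf5 and Pou3f1 were higher in the b2 columns, by 0.64 and 0.89 (log2). Their edgeR adjusted p were 0.0201 and 0.0189, in a fit that called 24.6% of genes. Tested were 5 feeder fibroblast, 2 muscle and 5 extraembryonic endoderm markers. Of these, 0 were called between genotypes by edgeR, where 7 of 17272 genes (0.0405%) were. The endoderm marker Sox7 alone had an unadjusted p under 0.05 (log2 fold change 2.03, edgeR unadjusted p = 0.000785, adjusted p = 0.308). Its means were 0.138 TPM in KO and 0.0340 TPM in WT. The summed level of the 10 feeder fibroblast markers was 11.3 to 30.0 TPM in KO and 5.68 to 20.4 TPM in WT, with Postn and S100a4 at 0 in every library; Thy1, with means of 17.1 TPM and 14.2 TPM, made up most of it, and the collagen gene Col1a1 had 0.296 TPM and 0.158 TPM. The summed level of the 8 muscle markers was 3.53 to 5.21 TPM and 4.71 to 5.10 TPM, and that of the 6 endoderm markers 1.81 to 4.11 TPM and 2.32 to 4.56 TPM, most of it Dab2 with means of 2.15 TPM and 2.50 TPM. All 5 endoderm markers tested had higher estimates in KO, with a median log2 difference of 0.46, where 49.0% of all genes tested were higher. Estimates are from counts and can differ in direction from mean TPM. They did so for Dab2 (0.11 on the log2 scale) and Col1a1 (-0.60). The summed ranges overlapped, and the part of such cells in the tropomyosin levels was not tested.

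Tpm3-rs7 (ENSMUSG00000058126.7) lies on chromosome 14, plus strand, at chr14:113314608-113316754 of GRCm38 (mm10). GENCODE M21 gives it 1 exon, 1 transcript of 2147 bases and the type protein-coding, with the tag retrogene. Its coding sequence has 248 codons and 0 internal stop codons, and its 3′ UTR has 1332 bases. Tpm3 (ENSMUSG00000027940.18) lies at chr3:90072649-90100902, plus strand, with 16 annotated transcripts, and its closest transcript spreads the same reading frame over 8 coding exons. Over 2103 aligned bases the copy and that transcript differed by 14 substitutions and 3 gaps, an identity of 99.33%. Of the substitutions, 3 lay in the coding sequence, 10 in the 3′ UTR and 1 in the 5′ UTR. The 3 coding differences, of which 2 change a residue, all fell within the stretch that is the first coding exon of that Tpm3 transcript. That stretch is printed for both genes, 5′ to 3′ from the start codon, because it holds every coding base by which the copy differs from that transcript; capitals mark the bases that differ, at positions 72, 98 and 127 counted from 1 at the first base of the start codon.
Tpm3-rs7, chr14:113314676-113314807, plus strand: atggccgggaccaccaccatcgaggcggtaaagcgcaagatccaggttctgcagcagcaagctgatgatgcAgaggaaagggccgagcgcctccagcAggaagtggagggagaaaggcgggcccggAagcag
Tpm3, chr3:90079732-90079863, plus strand: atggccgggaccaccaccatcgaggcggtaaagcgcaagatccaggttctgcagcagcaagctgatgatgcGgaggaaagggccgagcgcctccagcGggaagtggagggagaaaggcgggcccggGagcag

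The reads were 50 bases long, so the copy was cut into its 2098 windows of that length. Of these, 1457 (69.4%) occurred unchanged in a Tpm3 transcript and 641 (30.6%) in no other gene of the transcript set. Within the coding sequence 593 of 698 windows (85.0%) were shared with Tpm3, and within the 3′ UTR 789 of 1283 (61.5%). The longest identical run was 628 bases. Of the 16 Tpm3 transcripts, 15 shared at least 1 window with the copy, and the shared windows were 23.2% of all those of Tpm3. Windows shared with Tpm1, Tpm2 or Tpm4 numbered 0. Besides Tpm3, the pseudogenes Gm7848, Gm7839, Gm4157 and Gm5996 shared 48, 44, 41 and 7 windows, and none of the 4 exceeded 3.28 estimated counts in any library. Around the copy, the annotation places 9 genes within 1 Mb on either side, all 9 of them processed pseudogenes. None passed the filter on low counts, the nearest was 173465 bases away, and the largest total over all 8 libraries was 5.38 estimated counts.

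**Figure D1:**
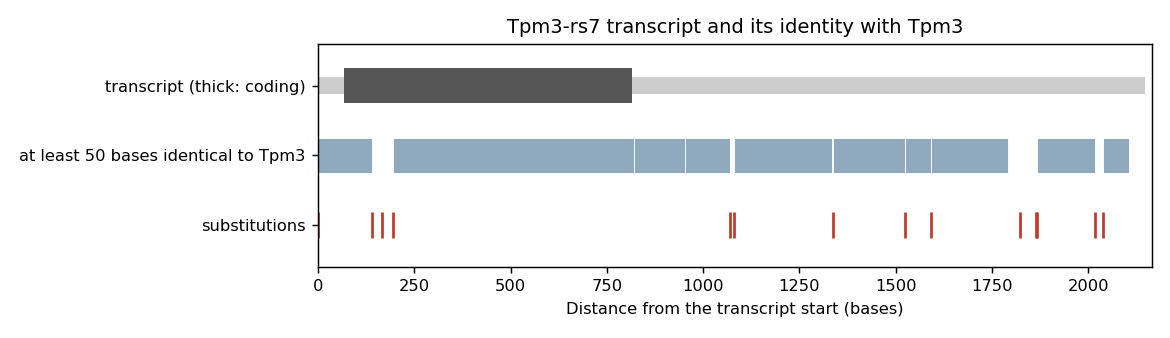
Map of the Tpm3-rs7 transcript by distance from its start in bases: the transcript with its coding part thick, the 10 runs in which at least 50 bases are identical to a Tpm3 transcript, and the 14 substitutions against the closest Tpm3 transcript. The longest run, 628 bases, covers most of the coding sequence, and 10 of the 14 substitutions lie in the 3′ UTR.

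Tpm3-rs7 was counted in every WT library and was close to absent from every KO library. The estimated counts were 1794 in WT7, 1675 in WT12, 2042 in WT17 and 1666 in WT34. In the KO libraries they were 13.9 in KO1, 17.0 in KO9, 30.2 in KO15 and 2.43 in KO25. As normalised counts, the WT lines had 98.6 CPM (WT7), 69.9 CPM (WT12), 96.2 CPM (WT17) and 118 CPM (WT34), and the KO lines had 0.650 CPM (KO1), 0.852 CPM (KO9), 1.57 CPM (KO15) and 0.177 CPM (KO25). The group means were 95.6 ± 19.8 CPM in WT and 0.812 ± 0.578 CPM in KO (SD, n = 4 each), a ratio of 118, and the fitted log2 fold change was -6.83 with a standard error of 0.41. The ratio of KO to WT means was 0.0077 among the b1 columns and 0.0093 among the b2 columns. Without WT12 the log2 fold change was -6.96. Per length, the copy had 15.9 to 24.9 TPM in WT and 0.039 to 0.34 TPM in KO. These values chose the gene and carry no test.

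Tpm3, the parent gene, had more counts in the KO lines. Its normalised counts were 327 CPM in KO1, 302 CPM in KO9, 425 CPM in KO15 and 331 CPM in KO25. The WT lines had 250 CPM (WT7), 294 CPM (WT12), 234 CPM (WT17) and 298 CPM (WT34). The lowest KO line, KO9, stood just above the highest WT line, WT34, so the groups did not overlap. The means were 346 ± 54.2 CPM and 269 ± 31.9 CPM (SD, n = 4 each). In the edgeR fit over 17272 genes the log2 fold change was 0.37 (SE 0.13, unadjusted p = 0.0161), and it did not pass after Benjamini-Hochberg adjustment over all genes (adjusted p = 0.751). With the b1 or b2 column suffix as a block the change was 0.37 (SE 0.079, adjusted p = 0.130). The ratio of means was 1.30 among b1 columns and 1.28 among b2 columns. Without KO15, the highest line, it was 0.25 (log2), and without WT12 it was 0.41.

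The counts of the pair divided differently in the genotypes while their sum did not move beyond the spread between lines. The copy took 28.3% of the summed Tpm3 and Tpm3-rs7 counts in WT7, 29.2% in WT17, 28.4% in WT34 and 19.2% in WT12, a mean of 26.3% with WT12 and 28.6% without it. In the KO lines it took 0.198% (KO1), 0.281% (KO9), 0.367% (KO15) and 0.0535% (KO25). Summed, the pair had 328 CPM in KO1, 303 CPM in KO9, 427 CPM in KO15 and 331 CPM in KO25. The WT sums were 348 CPM (WT7), 363 CPM (WT12), 330 CPM (WT17) and 416 CPM (WT34). The highest and the lowest of the 8 sums were both KO lines, and the groups overlapped.

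The summed count does not depend on how reads were divided between the 2 genes, and that is the comparison it serves. It cannot tell a different division of reads from a lower copy together with a higher Tpm3. Which of these occurred was not tested. The mean sum was 347 ± 54.7 CPM in KO and 364 ± 37.0 CPM in WT (SD, n = 4 each). On average the copy fell by 94.8 CPM from WT to KO and Tpm3 was 77.7 CPM higher. With the 2 rows replaced by their sum, the edgeR log2 fold change was -0.07 (SE 0.12, unadjusted p = 0.575, adjusted p = 0.998), with a 95% interval from -0.34 to 0.20. This interval does not show that the sums were equal; it includes no change and also a fall of up to 0.34 on the log2 scale. With the pair summed, edgeR called 6 of 17271 genes (0.0347%). The ratio of KO to WT mean sums was 0.930 within b1 columns, where the groups did not overlap, and 0.973 within b2 columns, where they did. Leaving out WT12 gave a log2 fold change of -0.07, leaving out KO15 gave -0.18, and leaving out WT34 moved it to 0.00040. Per length, the summed level was 298 ± 47.5 TPM in KO and 341 ± 29.5 TPM in WT (SD, n = 4 each), again overlapping. Unlike the summed count, this level does depend on the division of reads, because the counts of each gene are divided by its own length.

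**Figure D2:**
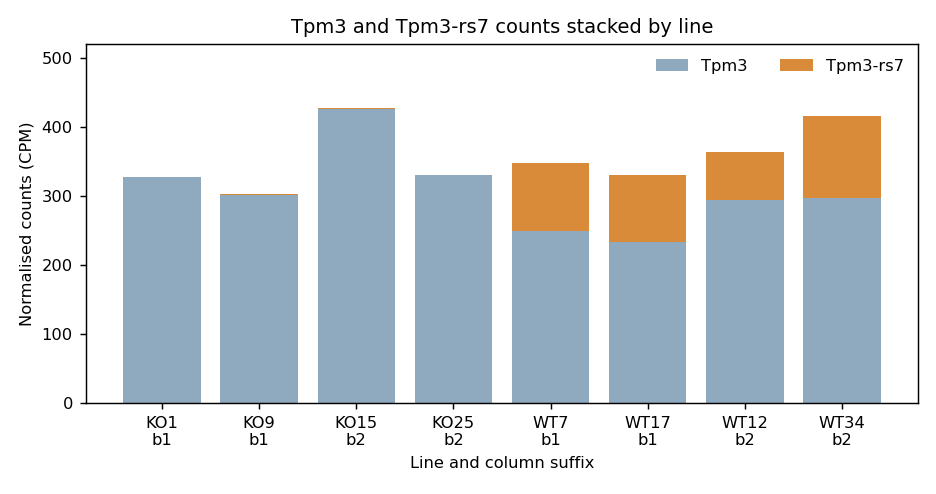
Normalised counts (CPM, linear axis from 0) of Tpm3 and, stacked on it, Tpm3-rs7 in each line, with the column suffix under the line name. The copy is 69.9 to 118 CPM of the WT bars and at most 1.57 CPM of the KO bars, while the full bars run from 303 to 427 CPM in KO and from 330 to 416 CPM in WT.

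The direction of Tpm3 depended on the unit. In counts it was higher in KO, but per length it was lower: 269 TPM (KO1), 273 TPM (KO9), 368 TPM (KO15) and 280 TPM (KO25) against 291 TPM (WT7), 338 TPM (WT12), 300 TPM (WT17) and 351 TPM (WT34). The KO line KO15 was the highest of all 8, and the other KO lines were the lowest 3. In limma on log2(TPM + 1) the change was -0.11, with an adjusted p of 1.00. The units differ because a TPM divides the count by a length, and for a gene with many transcripts that length is a mean weighted by how the counts were spread over them. Tpm3 transcripts run from 302 to 2374 bases, and 10 of the 16 are under 700 bases.

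The length implied by counts per TPM was therefore compared, scaled in each library on 2140 genes with a single transcript. For Tpm3 it was 511 bases in KO1, 459 in KO9, 482 in KO15 and 498 in KO25. In WT it was 350 bases (WT7), 381 (WT12), 346 (WT17) and 347 (WT34). The means were 488 ± 22.1 and 356 ± 16.8 bases (SD, n = 4 each), a ratio of 1.37, and the groups did not overlap. A two-sided exact permutation test gave p = 0.0286, the smallest that 4 lines against 4 allow. The length depends on the same division of reads as the values that chose the copy, so this p is not independent of that choice. The difference stood at 1.39-fold within b1 columns and 1.35-fold within b2 columns, and it was 0.49 (log2) without WT12 against 0.45 with it. WT12, the WT line with the lowest share of counts on the copy, had the longest implied length of the WT lines. Because the pair shares sequence, share and length come from one division of reads and are not independent measures.

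Lengths of single-transcript genes, which should not vary, deviated by up to 2.03% (95th percentile). Among 12001 genes with several transcripts, 280 (2.33%) had lengths that did not overlap between KO and WT, and 475 had a mean change at least as large as that of Tpm3. In limma on log2 length over those genes Tpm3 had a change of 0.45 (SE 0.047, unadjusted p = 3.02e-05). It did not pass after adjustment over all genes (limma adjusted p = 0.181, and 0.347 with the column suffix as a block). The 1 gene called without the block (0.00833%) was Tet1. The implied lengths of the other tropomyosins overlapped between the genotypes. Tpm1 had means of 1147 and 1164 bases (KO and WT; exact permutation p = 0.171), Tpm2 304 and 309 bases (p = 0.83 by the same exact test) and Tpm4 1844 and 1846 bases (p = 0.886, exact). These were 4 tests of a length, 1 per gene.

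**Figure D3:**
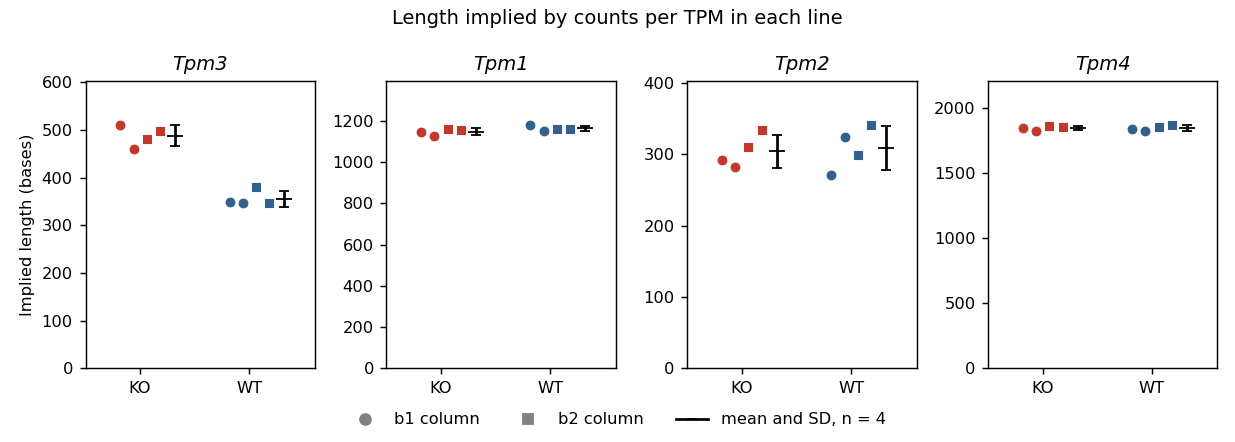
Implied length in bases (counts per TPM, linear axis from 0) of Tpm3, Tpm1, Tpm2 and Tpm4 in each line, circles for b1 and squares for b2 columns, with mean and SD (n = 4). For Tpm3 all KO points, 459 to 511 bases, lie above all WT points, 346 to 381 bases, and for the other 3 genes the points overlap.

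Tpm1 had overlapping levels in the genotypes. Its normalised counts were 266 CPM in KO1, 271 CPM in KO9, 168 CPM in KO15 and 266 CPM in KO25, against 231 CPM (WT7), 171 CPM (WT12), 246 CPM (WT17) and 178 CPM (WT34). KO15 was the lowest of all 8 lines although the other KO lines were the highest 3. The log2 fold change was 0.23 (SE 0.18, edgeR adjusted p = 0.998). It was 0.37 without KO15 (edgeR adjusted p = 0.584) and 0.15 without WT12 (edgeR adjusted p = 0.999).

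Tpm2, best known from skeletal and smooth muscle, had levels that overlapped between the genotypes. It had 40.0 CPM in KO1, 47.6 CPM in KO9, 27.6 CPM in KO15 and 37.2 CPM in KO25, and 33.2 CPM (WT7), 36.4 CPM (WT12), 38.5 CPM (WT17) and 27.5 CPM (WT34). Each group had a line near 27.5 CPM. The log2 fold change was 0.17 (SE 0.17, edgeR adjusted p = 0.998).

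Tpm4, a cytoskeletal tropomyosin of non-muscle cells, leaned the other way. It had 115 CPM in KO1, 124 CPM in KO9, 88.2 CPM in KO15 and 116 CPM in KO25, and 126 CPM (WT7), 129 CPM (WT12), 141 CPM (WT17) and 114 CPM (WT34). WT34 fell among the KO lines, so the groups overlapped, and KO15 was again the lowest of the 8. The log2 fold change was -0.20 (SE 0.12, edgeR adjusted p = 0.969). Tpm4 shares 251 of its windows of 50 bases (11.7%) with the pseudogene Gm7809, which had 3.42 to 7.48 CPM, and with that pseudogene added the log2 difference was also -0.20.

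Of the 4 family members other than the copy, 0 were called between KO and WT by edgeR, where 7 of 17272 genes (0.0405%) were called. By edgeR 1, Tpm3, had an unadjusted p under 0.05, as did 5.62% of all genes. DESeq2, which called 105 of 17272 genes, also called 0 of the 4. So did limma on TPM, which called 2 or 3 of 13838 genes (pseudocounts 1 and 0.1). At such low shares, 0 of 4 does not show that the family was unchanged. Of these 4, 1, Tpm3, had CPM values that did not overlap between genotypes, a pattern shown by 723 of 17272 genes (4.19%). Tpm3-rs7 did not overlap either, but it was chosen by this comparison, so it adds nothing to that count. Because Tpm3 shares sequence with the copy, its counts are not independent of that choice. Tpm1, Tpm2 and Tpm4 overlapped.

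All 5 genes together had 748 CPM in KO1, 746 CPM in KO9, 711 CPM in KO15 and 750 CPM in KO25, and 738 CPM (WT7), 700 CPM (WT12), 755 CPM (WT17) and 736 CPM (WT34). The means were 739 ± 18.6 CPM and 732 ± 23.3 CPM (SD, n = 4 each). Per length the order was the other way, at 465 ± 17.6 TPM in KO and 493 ± 16.4 TPM in WT (SD, n = 4 each); those groups overlapped over all lines and within the b1 columns, and did not within the b2 columns. In counts the total ran from 700 to 755 CPM over lines in which Tpm3 ran from 234 to 425 CPM and Tpm1 from 168 to 271 CPM. Over the 8 libraries, as a description, the log2 CPM of Tpm3 had a Pearson r of -0.93 with that of Tpm4, and Tpm1 had 0.78 with Tpm2. The values of Tpm3-rs7 and Tpm3 had an r of -0.67, over points that fall in 2 genotype groups. These values share libraries and normalisation.

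**Figure D4:**
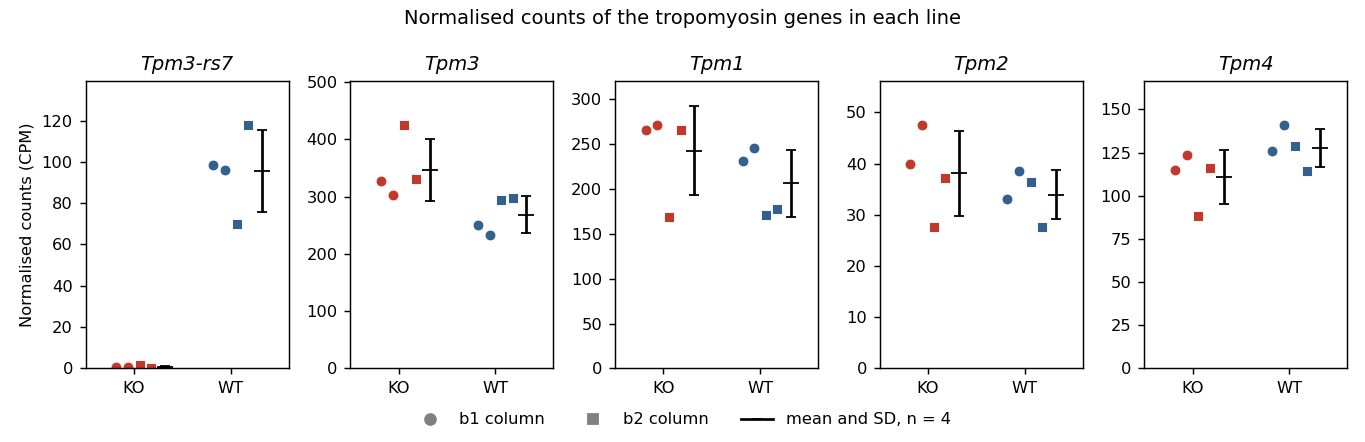
Normalised counts (CPM, linear axis from 0 with its own scale per gene) of the 5 tropomyosin genes in each line, circles for b1 and squares for b2 columns, with mean and SD (n = 4). Tpm3-rs7 is at most 1.57 CPM in KO and at least 69.9 CPM in WT, Tpm3 is higher in every KO line than in any WT line, and Tpm1, Tpm2 and Tpm4 overlap, with KO15 lowest for Tpm1 and Tpm4.

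Compared per length, the order of levels was the same in all 8 libraries for the 4 genes other than the copy: Tpm3, then Tpm1, Tpm2 and Tpm4. The means over the 8 libraries were 309 ± 38.3 TPM for Tpm3, 82.1 ± 17.3 TPM for Tpm1, 50.1 ± 11.6 TPM for Tpm2 and 27.3 ± 4.22 TPM for Tpm4 (SD, n = 8). Tpm3 lay far above the rest, with a lowest value of 269 TPM against a highest of 100 TPM for Tpm1. The ranges of Tpm1 (60.4 to 100 TPM) and Tpm2 (33.0 to 70.1 TPM) overlapped between libraries, as did those of Tpm2 and Tpm4 (19.8 to 34.4 TPM). In WT the copy came last, at 15.9 to 24.9 TPM against 25.03 to 34.4 TPM for Tpm4. The levels of Tpm3 and Tpm2 rest on implied lengths of 346 to 511 and 271 to 341 bases, on a scale from which an assumed fragment length has been taken off. In counts the order was not the same. The means over the 8 libraries were 307 CPM for Tpm3, 225 CPM for Tpm1, 119 CPM for Tpm4 and 36.0 CPM for Tpm2. Among the WT lines the copy had 69.9 to 118 CPM and Tpm2 27.5 to 38.5 CPM, so in counts the copy was not last. In WT17 Tpm1, at 246 CPM, stood above Tpm3, at 234 CPM.

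The column suffix was tested with genotype in the same edgeR model. Tpm3 was higher in b2 by 0.28 on the log2 scale (SE 0.079, adjusted p = 0.0308). Tpm1 was lower in b2, with a log2 difference of -0.38 (SE 0.12, adjusted p = 0.0459). Tpm2 had -0.30 (adjusted p = 0.135), Tpm4 -0.18 (adjusted p = 0.188) and Tpm3-rs7 0.01 (adjusted p = 0.987). So 2 of the 5 genes were called, in a fit that called 4253 of 17272 genes (24.6%). The summed pair had 0.23 (adjusted p = 0.0757). A difference in the effect of genotype between the suffixes, fitted with 2 lines per genotype and suffix, gave unadjusted p from 0.336 to 0.885 for Tpm1, Tpm2, Tpm3 and Tpm4, which does not show that the effects were alike. The edgeR interaction term called 0 of 17272 genes (0%), with 227 at an unadjusted p under 0.05.

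The genes that share the filament with tropomyosins were read from 9 lists of 55 genes. Of the 43 that passed the filter on low counts, 0 were called between KO and WT by edgeR, by DESeq2 or with the suffix as a block. Over all 17272 genes these fits called 7, 105 and 28. At such low shares, 0 calls here and in the single lists below do not show that these genes were unchanged. By edgeR, 3 had an unadjusted p under 0.05, all higher in KO, where 970 of all 17272 genes (5.62%) did. Of the 43, 30 had a higher and 13 a lower estimate in KO, where 8467 of all 17272 genes (49.0%) had a higher one. These estimates are from counts. For some genes, among them Diaph2, Cald1, Qk and Rbfox2, the estimate was slightly higher in KO while the mean TPM given below was lower. Their median change on the log2 scale was 0.06, against -0.0044 over all genes tested.

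The actins themselves had the highest levels. Beta-actin, Actb, had means of 4209 TPM in KO and 4006 TPM in WT (log2 fold change 0.14, edgeR adjusted p = 0.998), and gamma-actin, Actg1, 1008 TPM and 1075 TPM (-0.04). The muscle actin Acta1 had 0.521 TPM and 0.379 TPM. The summed level of the 6 actin genes was 4880 to 5636 TPM in KO and 4656 to 5379 TPM in WT. Of the 7 tropomodulins and leiomodins, which cap or seed filaments at the pointed end and bind tropomyosin there, 3 passed the filter and 0 were called. Tmod3, the widely expressed tropomodulin, had 17.4 TPM and 16.4 TPM (0.15), Tmod2 had 1.28 TPM and 1.13 TPM (0.08), and Tmod4, which was below the filter, had 0.384 TPM and 0.228 TPM.

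Of 8 troponin genes, which make tropomyosin respond to calcium in striated muscle, 2 passed the filter and 0 were called. Tnnt1 had 29.7 TPM in KO and 25.01 TPM in WT, Tnni3 had 3.95 TPM and 5.30 TPM, and Tnnc2, below the filter, had 0.770 TPM and 0.312 TPM. All 7 genes of nonmuscle myosin II, the motor whose access tropomyosin controls, passed and 0 were called. Among them the light chain Myl6 had 369 TPM and 347 TPM, the heavy chain Myh9 105 TPM and 135 TPM, and the light chain Myl12a 97.8 TPM and 89.3 TPM. The heavy chain Myh10 had the lowest p of that list, with 82.3 TPM and 70.5 TPM (log2 fold change 0.16, unadjusted p = 0.0352, edgeR adjusted p = 0.826).

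The 4 filament-severing genes, whose products compete with tropomyosin for the filament, had estimates higher in KO, and 0 were called. Cofilin, Cfl1, had 355 TPM in KO and 345 TPM in WT, and destrin, Dstn, 142 TPM and 122 TPM, while Cfl2 had 20.8 TPM and 19.1 TPM. Gelsolin, Gsn, had 1.21 TPM and 0.759 TPM (log2 fold change 0.73, unadjusted p = 0.0205, edgeR adjusted p = 0.791). Of the 6 formins, which elongate filaments, 0 were called, and the highest was Diaph1 with 30.0 TPM and 27.7 TPM, followed by Diaph3 with 6.59 TPM and 7.31 TPM and Diaph2 with 4.93 TPM and 5.04 TPM.

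Of the 6 caldesmon, calponin and transgelin genes, side-binding partners, 0 were called. Cnn3 had 364 TPM in KO and 370 TPM in WT, Cald1 33.3 TPM and 35.1 TPM, and Tagln2 34.6 TPM and 32.5 TPM. Cnn1 had 7.12 TPM and 5.24 TPM (log2 fold change 0.46, unadjusted p = 0.0433, edgeR adjusted p = 0.856). SRF and the cofactors Mrtfa and Mrtfb, which drive many actin and tropomyosin genes, gave 0 calls, with Srf at 43.7 TPM and 39.9 TPM, Mrtfa at 2.47 TPM and 2.79 TPM and Mrtfb at 2.22 TPM and 2.41 TPM. Of the 8 splicing regulators, which include those known to choose tropomyosin exons, 0 were called. Ptbp1, a repressor of muscle exons, had 734 TPM and 728 TPM, Qk had 35.2 TPM and 35.9 TPM, and Rbfox2 had 33.1 TPM and 38.3 TPM.

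**Figure D5:**
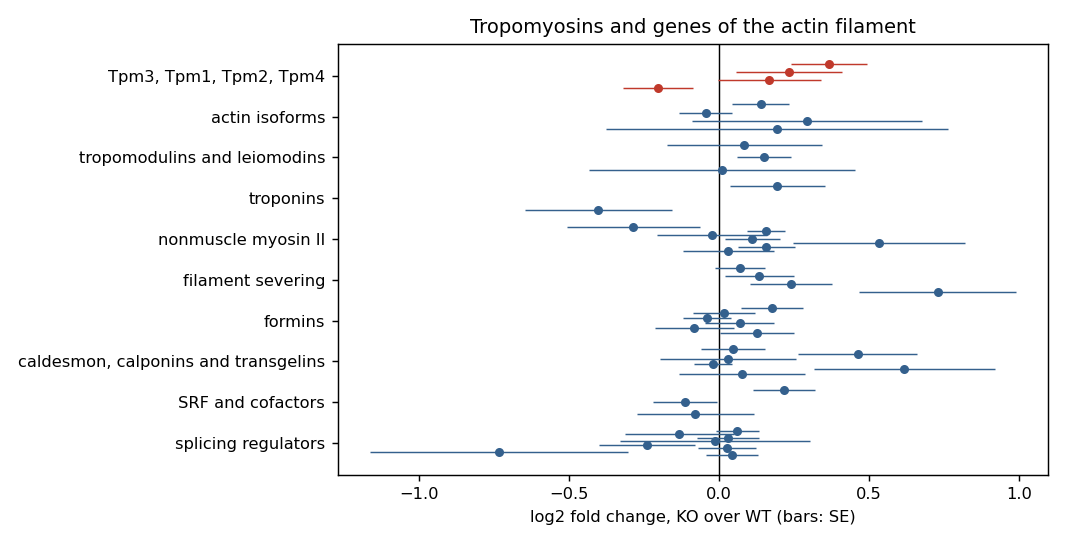
Log2 fold change, KO over WT, with its standard error for Tpm3, Tpm1, Tpm2 and Tpm4 (red) and the 43 tested genes of the 9 actin filament lists (blue, 1 row per list). Estimates of most genes lie near 0, and 0 of the genes shown were called by edgeR, which called 7 of 17272 genes (0.0405%).

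The genes most like each tropomyosin were ranked by the Pearson correlation of log2 CPM over the 8 libraries, as a description. For Tpm3-rs7 they were Rpp40 (r = 0.98), a subunit of ribonuclease P, the zinc-finger gene Zfp358 (0.98), Tet1 (0.97), Maf1 (0.97), a repressor of RNA polymerase III, and the transporter Slc22a20 (0.96). For each of these 5 the libraries fall into 2 genotype groups that do not overlap, as for Tpm3-rs7 and for 723 of 17272 tested genes (4.19%). Tpm3-rs7 was chosen by its difference between genotypes, so ranking by likeness to it picks such genes. Rpp40 spanned 21.1 to 23.6 CPM among the KO lines, against 29.3 to 31.1 CPM among the WT lines, a far smaller difference than that of the copy. Maf1 had 29.0 to 30.5 CPM and 37.0 to 39.7 CPM, Zfp358 2.26 to 3.06 CPM and 4.62 to 5.55 CPM, and Slc22a20 0.146 to 0.311 CPM and 0.566 to 0.825 CPM.

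The genes most like Tpm3 were Lsm12 (0.97), the lipoxygenase gene Alox15 (0.96) and the proteasome subunit gene Psma1 (0.96). For Tpm1 they were Tpd52 (0.995), Lrrc8b (0.99) and C1qtnf12 (0.98). For Tpm2 they were Dtnb (0.98), Myl7 (0.98), an atrial myosin light chain, and Trmt2b (0.97). For Tpm4 they were Snhg18 (0.97), Mgst1 (0.96), a microsomal glutathione transferase, and Gm16201 (0.96). None of these lists held another tropomyosin.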

How the data were processed

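The authors trimmed reads of 50 bases with Trim Galore (version 0.6.4), quantified transcripts with Salmon (0.14.1) on the GENCODE 23 mouse transcriptome and imported the result into R (4.0.2) by tximport, as values per gene. Of the deposited estimated counts 27.8% are not whole, and they were rounded here for the count fits. The deposited TPM values, made by the authors, divide by a length estimated per library. Genes passing filterByExpr (17272) were tested with edgeR (4.0.16), TMM scaling and the quasi-likelihood test, KO against WT, with Benjamini-Hochberg adjustment over all genes and a threshold of 0.05; CPM in the text uses the same scaling. For the pair, the 2 rows were replaced by their sum before rounding. DESeq2 (1.42.0), limma (3.58.1) on log2(TPM + 1) or log2(TPM + 0.1) for genes with a mean of at least 1 TPM, other scalings and filters, the column suffix as a block or alone, and each line left out were alternatives.

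Implied length is count divided by TPM for genes with at least 10 counts in every library, scaled per library so that single-transcript genes over 500 bases gave their annotated length less an assumed fragment of 250 bases. It was compared by the two-sided exact permutation test over all 70 assignments and by limma over 12001 genes, which was chosen after seeing the data, as was adding the pseudogene of Tpm4; no p adjusted over the tropomyosins alone is given. Positions, transcripts and sequences are from GENCODE M21 (GRCm38, the files' mm10); shared windows are exact matches of 50 bases. The copy was aligned to its closest Tpm3 transcript with Biopython (1.88).

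The 5 genes were matched by symbol. The members and lists were chosen with earlier results of these data known. Genes named are the members, listed genes that were called plus the 3 highest of each of the 9 actin filament lists, the 5 genes most correlated with Tpm3-rs7 and 3 with each other member, and genes sharing 50 bases with the copy; Gsn, Myh10, Cnn1 and the cell type markers given by name were chosen after their values were seen. The fits were tested on simulated data. Library totals of 13916576 to 23680839 limit the precision of low counts.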

Additional observations from a re-analysis of the deposited data

Results flagged for a closer look

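Of 38 groups of 4 lines tested for a value far from the other 3 (Dixon's criterion at the 95% level), 7 were flagged, where chance flags about 1 in 20. In KO15, Tpm1 stood apart from the other KO lines at 168 CPM and 60.4 TPM. Tpm3 stood apart there at 368 TPM, and with Tpm3-rs7 added at 369 TPM. All 5 tropomyosins together had 711 CPM in KO15, below the other KO lines. These 5 flags are of 1 library and share values with each other. In WT12, Tpm3-rs7 took 19.2% of the summed counts of the pair, below the other WT lines, and the implied length of Tpm3 was 381 bases, above them. WT12 also had the lowest Tet1 of the WT lines, 559 CPM against 775 to 851 CPM.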

How the results depend on the processing

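Of 92 alternatives other than leaving out a line, 81 counted as unchanged. For tested results that meant the same direction and the same side of the threshold. For Tpm3-rs7 and its share it meant a shift smaller than the SD between lines, and for genes called a similar number. Tpm3 turned from 0.37 to -0.11 with limma on TPM, with either pseudocount, since TPM divides by the implied length. Tpm3-rs7 moved from -6.83 to -4.21 with a pseudocount of 1. The copy's share of the pair was 6.17% in WT and 0.0564% in KO as TPM, in place of 26.3% and 0.225%. Genes called between KO and WT numbered 105 with DESeq2, 28 with the column suffix as a block, 19 in the b1 columns alone, and 2 and 3 with limma on TPM (pseudocounts 1 and 0.1), against 7; the cause was not tested. The implied length of Tpm3 kept its change (0.45) but did not pass in limma over all genes (adjusted p = 0.181), which also adjusts for 12001 genes. Over its alternatives Tpm3 itself had adjusted p from 0.130 to 1.00.

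Leaving out each line gave -7.33 to -6.55 for Tpm3-rs7, 0.25 to 0.42 for Tpm3, 0.15 to 0.37 for Tpm1, 0.04 to 0.29 for Tpm2, -0.26 to -0.11 for Tpm4 and -0.18 to 0.00040 for the sum, the last without WT34. Implied lengths moved from 0.43 to 0.49 for Tpm3, -0.03 to -0.01 for Tpm1, -0.078 to 0.030 for Tpm2 and -0.0079 to 0.0040 for Tpm4, on the log2 scale. Genes called numbered 6 to 10. No paired analysis was possible because the labels do not say which KO and WT lines share a litter, although the study describes littermate pairs, and the line numbers are not shared between genotypes. In the KO libraries the copy rests on 2.43 to 30.2 estimated counts, which limits any statement about its level there, and counts at the windows that tell the copies apart were not analysed here.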
